A study of Mus musculus with 6 samples.

Results

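Iron, copper and zinc handling genes were examined in primary murine hepatocytes that overexpressed Aloxe3, the gene of a lipoxygenase family enzyme (eLOX3). They are the 10 genes Hamp, Tfrc, Fth1, Ftl1, Slc40a1, Slc11a2, Slc39a14, Mt1, Mt2 and Cp, taken by symbol from a list that was drawn up with earlier results of these data known, out of 41388 genes in the RNA-seq table. RNA-seq was performed on 6 libraries of hepatocytes isolated from C57BL/6J mice by collagenase and cultured in growth medium overnight. In the control group (β-gal replicates 1, 2 and 3), the cells received adenovirus that encodes beta galactosidase. In the Aloxe3 group (replicates 7, 8 and 9), they received adenovirus that encodes Aloxe3. Both groups thus carried an adenovirus, at about 1 viral particle per cell, and RNA was collected after 24 h (n = 3 per group). The age and sex of the mice and the promoter of the viruses are not given in the sources used here, nor is whether the replicates came from separate mice. P-values therefore measure the spread between these samples, which may be technical.

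The hepatocyte is the main cell of systemic iron control. It stores iron in ferritin, a shell of heavy (Fth1) and light (Ftl1) chains. It takes iron up from transferrin through the transferrin receptor (Tfrc), and as free iron through Slc39a14, with Slc11a2 moving ferrous iron out of endosomes. It releases iron through ferroportin (Slc40a1), the only known iron exporter, helped by the copper enzyme ceruloplasmin (Cp), which oxidizes iron for loading onto transferrin. The hepatocyte also secretes hepcidin (Hamp), the hormone that blocks and degrades ferroportin, and its transcription responds to bone morphogenetic protein (BMP) signals and to IL-6 through STAT3. Metallothioneins (Mt1, Mt2) are small cysteine-rich proteins that bind zinc and copper, and the zinc-sensing factor MTF1 switches on their genes through metal response elements.

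Several of these genes answer to iron after transcription. Iron regulatory proteins bind a hairpin, the iron-responsive element, when iron is scarce. A hairpin in the 5′ untranslated region (UTR) blocks translation without changing the mRNA level, whereas hairpins in the 3′ UTR protect the mRNA from decay. The hairpins are shown because they divide the genes into those whose mRNA level could report on iron by this route (3′) and those whose mRNA level cannot (5′). The levels given here are per gene and pool its transcripts. Whether every transcript of a gene carries the hairpin was not tested, so a level need not report on iron even with a 3′ match. A search of GENCODE M21 transcripts for an unpaired C, 5 stem bases, the loop CAGTG followed by A, C or T, and 5 stem bases with at most 1 pair missing found 8 matches in the UTRs of 5 of the 10 genes. Such a match was found in 906 of 21924 coding genes (4.13%), and with a fully paired stem in 133 (0.61%), among them 4 of the 10. Capitals mark the unpaired C and the loop, and all positions are of GRCm38.
Fth1, 5′ UTR, chr19:9982733-9982759, forward strand: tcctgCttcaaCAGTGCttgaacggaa
Ftl1, 5′ UTR, chr7:45459780-45459806, reverse strand: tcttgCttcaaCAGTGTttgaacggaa
Slc40a1, 5′ UTR, chr1:45925466-45925492, reverse strand: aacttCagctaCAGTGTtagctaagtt
Slc11a2, 3′ UTR, chr15:100395154-100395180, reverse strand: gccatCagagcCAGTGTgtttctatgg
Tfrc, 3′ UTR, chr16:32631220-32631246, forward strand: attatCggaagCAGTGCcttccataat
Tfrc, 3′ UTR, chr16:32631599-32631625, forward strand: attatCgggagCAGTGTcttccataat
Tfrc, 3′ UTR, chr16:32631664-32631690, forward strand: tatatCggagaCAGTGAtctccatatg
Tfrc, 3′ UTR, chr16:32631711-32631737, forward strand: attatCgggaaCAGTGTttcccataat
Both ferritin chains carry the same stem on either side of the loop. Tfrc had 4 matches, and the Slc11a2 match was the one with an unpaired stem position. For Hamp, Slc39a14, Cp, Mt1 and Mt2 there were 0 matches to these letters.

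The promoters of Hamp, its near copy Hamp2, Mt1 and Mt2 are shown because these genes are controlled at transcription. The sequences are the 150 bases before the RefSeq start (GRCm38.p6). In both Hamp genes capitals mark GGCGCC, the core of the BMP response element, and TTCNNNGAA, the STAT site. In Mt1 and Mt2 they mark the metal response element, TGCACNC or TGCGCNC on either strand.
Hamp, chr7:30944030-30944179, reverse strand: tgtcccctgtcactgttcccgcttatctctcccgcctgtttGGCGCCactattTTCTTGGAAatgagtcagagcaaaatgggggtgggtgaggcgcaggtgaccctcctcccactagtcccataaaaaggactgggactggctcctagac
Hamp2, chr7:30924182-30924331, reverse strand: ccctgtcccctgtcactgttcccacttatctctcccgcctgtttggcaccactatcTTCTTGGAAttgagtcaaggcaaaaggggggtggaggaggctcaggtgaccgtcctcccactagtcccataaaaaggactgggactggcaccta
Mt1, chr8:94178939-94179088, forward strand: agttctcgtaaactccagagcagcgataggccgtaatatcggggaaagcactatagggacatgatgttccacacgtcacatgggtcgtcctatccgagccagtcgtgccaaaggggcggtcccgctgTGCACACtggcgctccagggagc
Mt2, chr8:94172468-94172617, forward strand: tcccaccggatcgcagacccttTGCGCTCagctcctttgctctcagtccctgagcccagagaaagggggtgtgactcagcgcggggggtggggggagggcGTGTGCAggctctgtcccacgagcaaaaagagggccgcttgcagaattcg
Hamp held GGCGCC at −109 to −104 and the STAT site at −97 to −89, whereas Hamp2 held only the STAT site, at −94 to −86. In the window from 250 bases before to 30 after the RefSeq start, Mt2 had 4 metal response elements and Mt1 had 3. Of these, 1 in Mt2 and 2 in Mt1 lie after the RefSeq start. Among 32851 promoters of this window, 24.1% had at least 1 such element, 1.73% at least 3 and 0.405% at least 4. GGCGCC was found in 10.9% of them and the STAT site in 7.83%. The Mt2 window ends at 94172647, before the GENCODE gene start at 94172664, so all 4 elements of Mt2 lie before that start. The counts in Mt1 and Mt2, and which elements lie after a start, thus depend on the start chosen. The metal response element at −50 to −44 of Mt2 overlaps a hypoxia response element (GCGTG, −52 to −48). The latter motif, ACGTG or GCGTG on either strand, was in 41.8% of promoters and also in those of Mt1, Tfrc, Fth1 and Ftl1. Tfrc had 2 metal response elements, which overlap each other, and a GGCGCC, and for Cp, Fth1 and Ftl1 there were 0 of either. These matches are letters in a window and were not tested for binding.

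The depth was 29575553 to 32431318 reads per library in the β-gal group and 25521908 to 30399198 in the Aloxe3 group, as derived from the steps of the deposited RPKM values (reads divided by gene length in kilobases and by library size). Aloxe3 rose from 1.95 ± 0.178 RPKM to 48.1 ± 7.32 RPKM (SD, n = 3), so the labels hold for the targeted gene, though the count is of reads on the mouse gene. Aloxe3 replicate 9 stood apart from the other libraries. Mitochondrially encoded genes took 3.70% of its reads against 2.76% to 2.98% in the other 5, and the chi-square per degree of freedom against the other Aloxe3 libraries was 10.3 and 11.4, where the other replicate pairs had 3.42 to 5.56. Hepatocyte markers were high in all libraries (Alb at 4362 to 4552 RPKM), although Tat and Pck1 stayed under 1 RPKM, and Cps1 and Cyp2e1 between 0.915 and 2.86 RPKM. Of the 8 hepatocyte markers tested 1 was called, against 0.394% of all tested genes, namely Ttr, lower at 124 ± 6.46 and 100.5 ± 1.06 RPKM (SD, n = 3, limma adjusted p = 0.0448). Apoa1 and Apoc3 lay lower and Cps1 and Tat, which was below the filter, higher without overlap between groups, and were not called or not tested, where 19.9% of all tested genes had groups that did not overlap. The summed level of 8 Kupffer cell markers was 4.25 to 5.95 RPKM in β-gal and 4.22 to 4.98 RPKM in Aloxe3 libraries, with Cd163 at 0 in all β-gal libraries. The sums were 25.9 to 30.1 and 25.9 to 30.0 RPKM for 7 endothelial markers, and 4.45 to 4.93 and 4.33 to 4.79 RPKM for 7 stellate markers, with Lrat at 0 in every library. For 7 erythroid markers the sum was 0.328 to 1.69 RPKM in β-gal and 0.271 to 0.378 RPKM in Aloxe3 libraries. The part of these cells in the results was not tested.

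Levels of the 10 mRNAs differed widely. In the β-gal group Fth1 led with 4938 ± 29.7 RPKM (SD, n = 3), followed by Mt1, Mt2, Ftl1, Hamp and Cp, each with a range over the β-gal libraries apart from that of the next gene. These 6 genes were above 98% of the 12693 genes tested. Tfrc and Slc11a2 followed at 21.6 ± 1.36 and 21.5 ± 0.571 RPKM (SD, n = 3), and their ranges overlapped, so that their order is not resolved. Slc39a14 came next with 19.6 ± 0.431 RPKM and Slc40a1 last with 9.68 ± 0.60 RPKM (SD, n = 3), above 58.9% of the genes tested. Derived reads per library ran from 2018, for Slc40a1 in Aloxe3 replicate 9, to 139642, for Fth1 in β-gal replicate 2. Hamp had fewer derived reads than Slc40a1 in β-gal replicates 2 and 3 and in Aloxe3 replicates 7 and 8. The gene model enters each level, since RPKM divides by a gene length. For Slc40a1 and Cp the values gave whole reads with the length of all annotated exons, 9000 and 9566 bases. For Hamp, Fth1, Mt1 and Mt2 they did not, and the smallest length that gave whole reads was used (392 bases for Hamp, 540 for Mt1), so that the reads derived for these 4 are known only up to a common factor. Sequence shared with other genes also matters, since only uniquely aligned reads were counted. Of the windows of 50 bases (the read length) in coding transcripts, 80.9% in Ftl1 also occurred in transcripts of 17 other genes. The share was 45.8% in Mt2, with Gm45774, 16.6% in Hamp, with Hamp2, and 4.32% or less in the other 7 genes. The Ftl1 level is therefore uncertain relative to Fth1 and the other genes. The same holds for Mt2 and, with a smaller share, for Hamp. The place of these genes in the order above is not settled by the ranges over libraries.

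**Figure D1:**
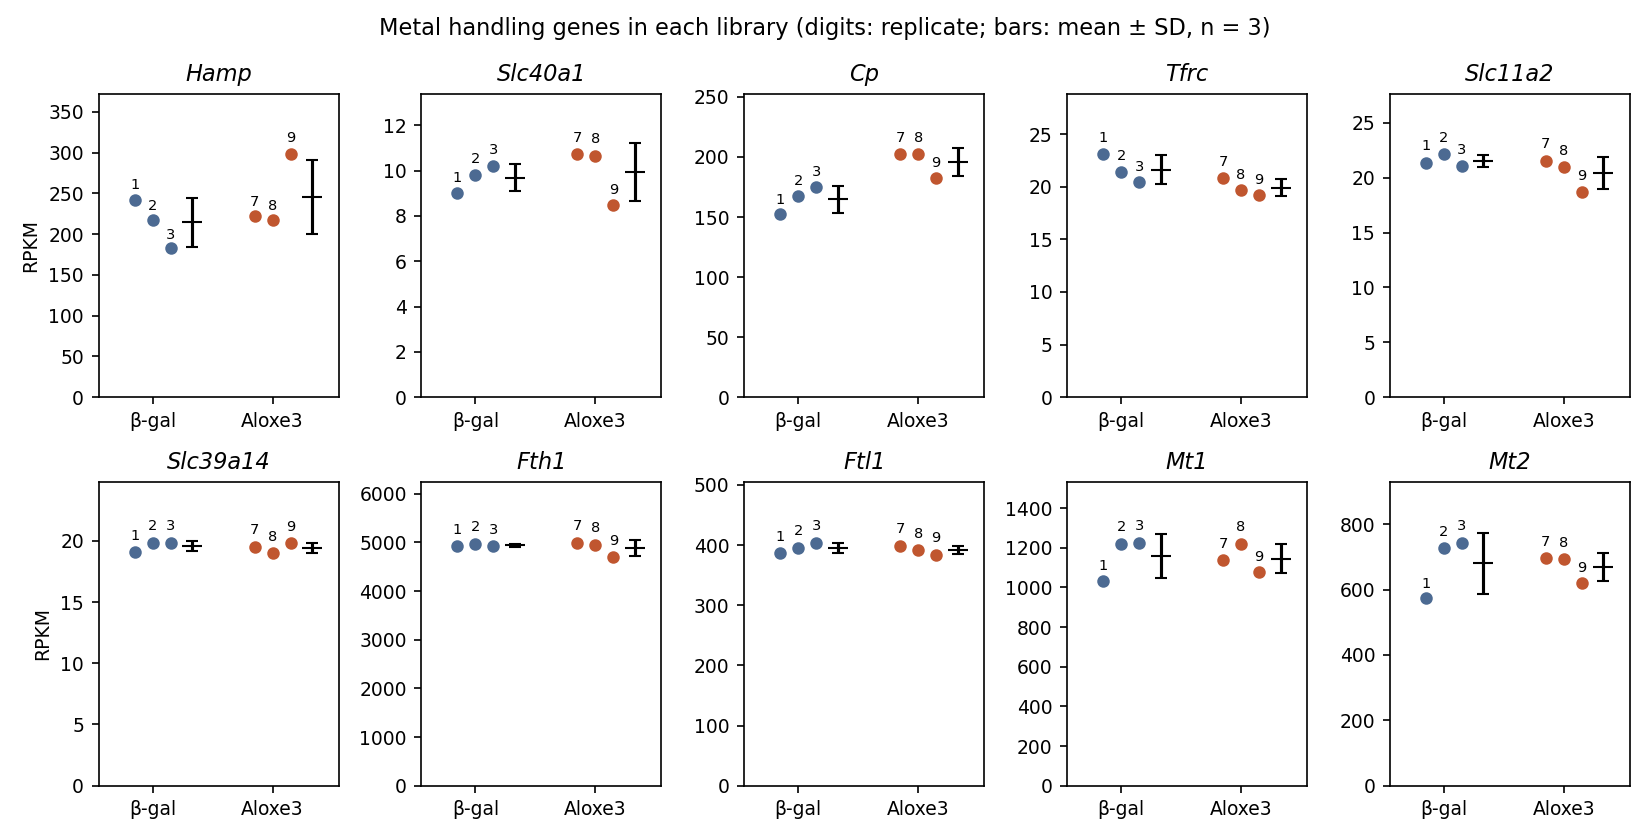
RPKM of the 10 metal handling genes in each library (y axis from 0, 1 scale per gene), β-gal replicates in blue and Aloxe3 replicates in orange, with the replicate number above each point and the mean ± SD (n = 3) as black bars. For Cp all 3 Aloxe3 libraries lie above all 3 β-gal libraries, and for the other 9 genes the groups overlap.

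The question here was whether Aloxe3 overexpression changed the mRNAs of metal handling. RPKM values were compared as log2(RPKM + 1) with limma over the 12693 genes whose mean reached 0.5 RPKM, and p-values were adjusted over all of them (Benjamini-Hochberg). All 10 genes passed this filter. At an adjusted p under 0.05, 0 of the 10 genes differed, where 0.394% of all tested genes did (50 genes, 45 higher and 5 lower). At an unadjusted p under 0.05 there was 1 of 10 (Cp, higher), against 12.7% of all tested genes. With voom in limma on the derived reads 1 of the 10 was called, again Cp, against 1.36% of all genes. The groups did not overlap for 1 of 10, against 19.9% of all tested genes. The median log2 fold change of the 10 genes was −0.01 and that of all tested genes 0.00, and 6 of the 10 lay within 0.05 of 0. With 1 gene making up 10% of the 10, these shares are no result about metal handling genes. In bulk RNA, fewer cells of a type and less RNA per cell cannot be told apart.

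**Figure D2:**
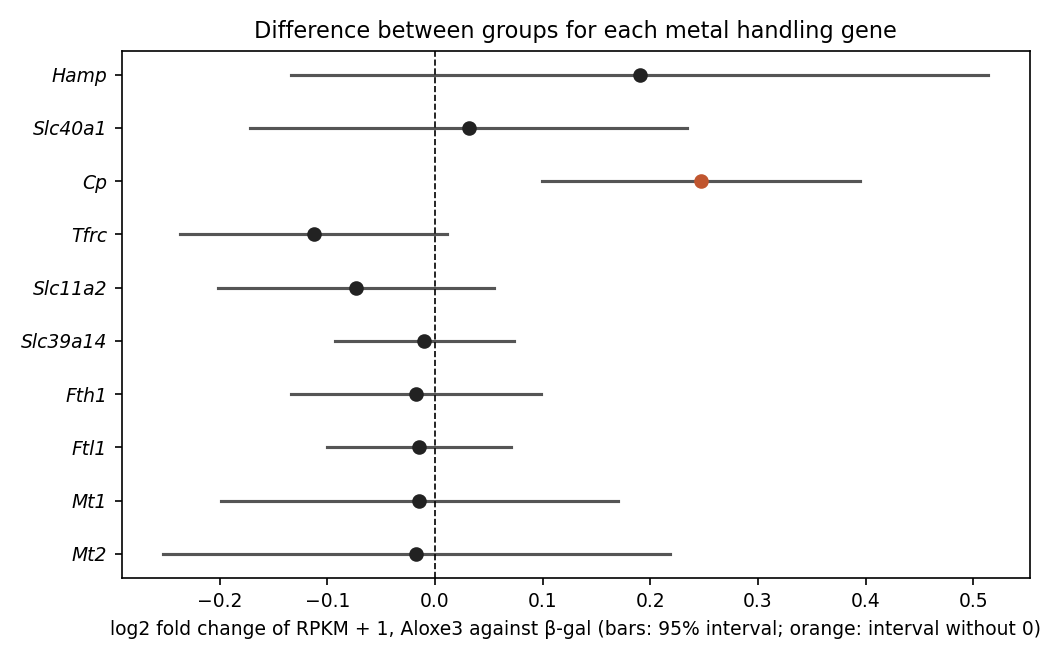
Log2 fold change of RPKM + 1 in Aloxe3 against β-gal libraries for each gene (points), with its 95% interval from limma, not adjusted for the number of genes (bars, n = 3 per group). The interval of Cp runs from 0.10 to 0.39 and those of the other 9 genes include 0.

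Ceruloplasmin was the gene with the smallest p. Cp (ENSMUSG00000003617, chr3:19957054-20009145, forward strand) was at 152, 167 and 175 RPKM in β-gal replicates 1, 2 and 3. It was at 202.3, 202.2 and 182 RPKM in Aloxe3 replicates 7, 8 and 9. All 3 Aloxe3 libraries were higher than all 3 β-gal libraries, with the lowest Aloxe3 library close to the highest β-gal one. The group means were 164.7 ± 11.5 and 195.6 ± 11.5 RPKM (SD, n = 3), a difference of 18.8%. The log2 fold change was 0.25 (SE 0.06, unadjusted p = 0.005, limma adjusted p = 0.24), and its 95% interval of 0.10 to 0.39 corresponds to 1.07-fold to 1.31-fold. With voom the adjusted p was 0.0258 at a log2 fold change of 0.25, and over all 13 alternatives it ran from 0.0258 to 0.497. Each value rests on 46089 to 58811 derived reads. Leaving out 1 library at a time moved the log2 fold change of Cp between 0.19 and 0.30. Of its read-length windows, 0.92% are shared with Hps3, the neighbouring gene.

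The genes whose levels most resembled those of Cp over the 6 libraries were Fads6, a fatty acid desaturase family gene (Pearson r = 0.999 of log2(RPKM + 1)), Gclc, the catalytic subunit of the enzyme that starts glutathione synthesis (r = 0.998), and Acsl4, an acyl-CoA synthetase that prefers arachidonic acid (r = 0.997). Gclc was at 84.3 ± 9.45 and 112 ± 9.79 RPKM (SD, n = 3), with an adjusted p of 0.16 from limma. These r values describe 6 libraries that differ in group and depth, and 278 of the 12692 other genes had an r over 0.9.

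Hepcidin was variable between libraries. Hamp (ENSMUSG00000050440, chr7:30942368-30944032, reverse strand) was at 241.9, 218 and 183 RPKM in β-gal replicates 1, 2 and 3. It was at 222, 217 and 298 RPKM in Aloxe3 replicates 7, 8 and 9. Aloxe3 replicate 9 was the highest library, and the other 2 Aloxe3 libraries lay within the range of the β-gal group. The difference between groups was 0.19 on the log2 scale (SE 0.14, limma adjusted p = 0.60, 95% interval −0.13 to 0.51), so that a level 1.43-fold higher and one 0.911-fold that of the control are both within the interval. Without Aloxe3 replicate 9 the log2 fold change was 0.04, without β-gal replicate 3 it was 0.08, and without β-gal replicate 1 it was 0.28. The coefficient of variation (SD over mean) was 13.8% in β-gal and 18.5% in Aloxe3 libraries. It was the widest of the 10 genes in the Aloxe3 group, whereas in the β-gal group Mt2 was alike at 13.7%. Hamp had 2123 to 3087 derived reads per library, whereas its copy Hamp2 had 2, 2 and 1 in the β-gal libraries and 0 in each Aloxe3 library.

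Ferroportin, the target of hepcidin, had the lowest level of the 10 genes. Slc40a1 (ENSMUSG00000025993, chr1:45908068-45926523, reverse strand) was at 9.03, 9.81 and 10.2 RPKM in the β-gal libraries. It was at 10.7, 10.7 and 8.48 RPKM in Aloxe3 replicates 7, 8 and 9. Aloxe3 replicate 9 was the lowest of all 6 libraries, and the other 2 Aloxe3 libraries were the highest. On the log2 scale the difference was 0.03 (SE 0.09, limma adjusted p = 0.91, 95% interval −0.17 to 0.23). Without replicate 9 it was 0.13, with the 2 Aloxe3 libraries above all β-gal libraries, and it turned to −0.01 without β-gal replicate 1, −0.02 without Aloxe3 replicate 7 and −0.02 without Aloxe3 replicate 8. Within the group, replicate 9 thus had the highest Hamp and the lowest Slc40a1 level.

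Among the 10 genes, Tfrc had the most negative log2 fold change. Tfrc (ENSMUSG00000022797, chr16:32608920-32632794, forward strand), with 4 hairpin matches in its 3′ UTR, was at 23.1, 21.4 and 20.4 RPKM in β-gal replicates 1, 2 and 3. It was at 20.8, 19.7 and 19.2 RPKM in Aloxe3 replicates 7, 8 and 9. Only Aloxe3 replicate 7 lay within the β-gal range, just above β-gal replicate 3. This gave a log2 fold change of −0.11 (SE 0.05, unadjusted p = 0.069, limma adjusted p = 0.43), and its 95% interval of −0.24 to 0.01 holds levels from 0.849-fold to 1.01-fold those of the control. Without β-gal replicate 1 the value was −0.07.

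Slc11a2 (ENSMUSG00000023030, chr15:100387898-100425072, reverse strand), the other gene with a 3′ match, was at 21.4, 22.1 and 21.0 RPKM in the β-gal libraries. It was at 21.6, 21.0 and 18.7 RPKM in Aloxe3 replicates 7, 8 and 9. Replicate 9 was the lowest, and the groups overlapped. Between groups the log2 fold change was −0.07 (SE 0.06, limma adjusted p = 0.61, 95% interval −0.20 to 0.05), and it was −0.02 without replicate 9 and −0.11 without Aloxe3 replicate 7. Slc39a14 (ENSMUSG00000022094, chr14:70303469-70351425, reverse strand), which carries both zinc and iron that is not bound to transferrin, was among the steadiest genes. It ranged from 19.1 to 19.8 RPKM in β-gal and from 19.0 to 19.8 RPKM in Aloxe3 libraries. Its log2 fold change was −0.01 (SE 0.04, limma adjusted p = 0.93, 95% interval −0.09 to 0.07).

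The ferritin chains varied little between libraries. Fth1 (ENSMUSG00000024661, chr19:9980598-9985098, forward strand), the chain with ferroxidase activity, was at 4919.8, 4972 and 4921 RPKM in the β-gal libraries. It was at 4992, 4952 and 4693 RPKM in Aloxe3 replicates 7, 8 and 9, again lowest in replicate 9. Its log2 fold change was −0.02 (SE 0.05, limma adjusted p = 0.91), and its 95% interval holds levels from 0.911-fold to 1.07-fold those of the control. Ftl1 (ENSMUSG00000050708, chr7:45457944-45459884, reverse strand), the chain that helps iron to mineralize, was at 387, 396 and 404 RPKM in β-gal and at 398, 392 and 384 RPKM in Aloxe3 libraries. The groups overlapped, and the log2 fold change was −0.01 (SE 0.04, limma adjusted p = 0.90, 0.933-fold to 1.05-fold). These are mRNA levels, and ferritin protein, which the 5′ hairpins control, was not measured here.

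The metallothioneins differed more within groups than between them. Mt1 (ENSMUSG00000031765, chr8:94179082-94180327, forward strand) was at 1031, 1218 and 1225 RPKM in β-gal replicates 1, 2 and 3. It was at 1137, 1220.4 and 1077 RPKM in Aloxe3 replicates 7, 8 and 9. The neighbouring Mt2 (ENSMUSG00000031762, chr8:94172664-94173568, forward strand) was at 573, 726 and 743 RPKM in the β-gal libraries and at 695, 693 and 619.5 RPKM in the Aloxe3 libraries. For both genes β-gal replicate 1 was lowest of the 6 libraries and Aloxe3 replicate 9 next. The log2 fold change was −0.01 for Mt1 (SE 0.08, limma adjusted p = 0.96, 95% interval −0.20 to 0.17). It was −0.02 for Mt2 (SE 0.10, limma adjusted p = 0.96, 95% interval −0.25 to 0.22). The direction of both turned when β-gal replicate 2, β-gal replicate 3 or Aloxe3 replicate 9 was left out, to at most 0.05, and without β-gal replicate 1 the values were −0.10 for Mt1 and −0.14 for Mt2. β-gal replicate 1 was also lowest for Cp, and had the highest erythroid marker sum (1.69 RPKM).

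**Figure D3:**
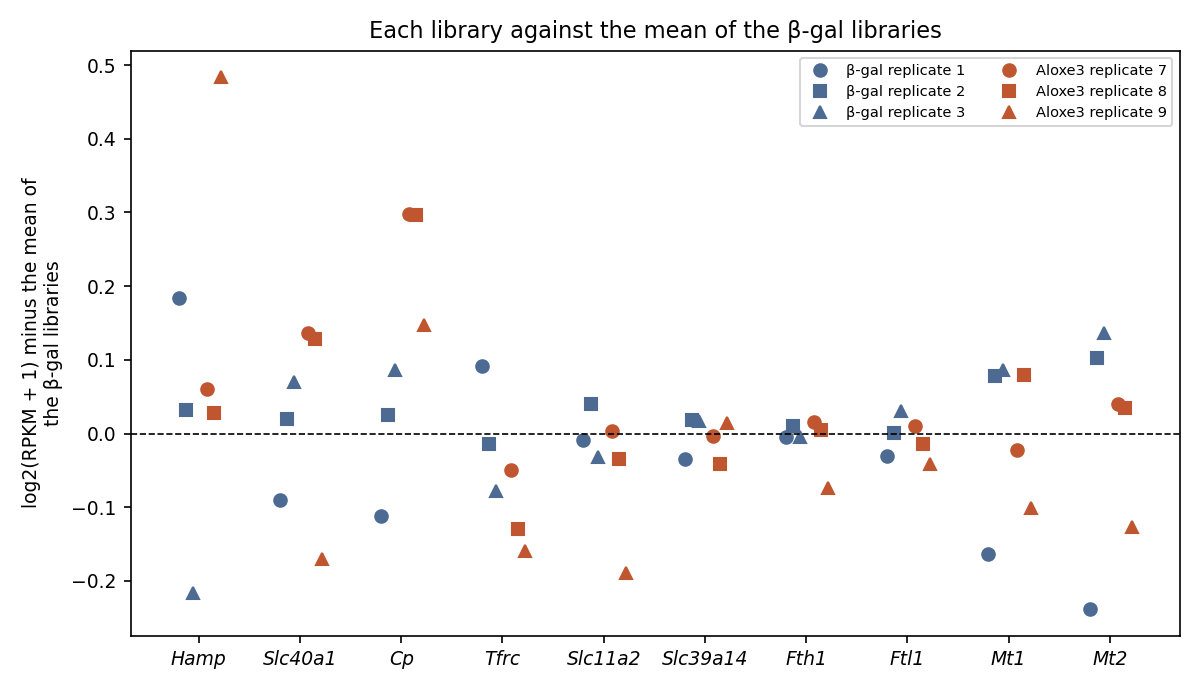
Log2(RPKM + 1) of each gene in each library minus the mean of the 3 β-gal libraries (dashed line at 0), with blue symbols for β-gal and orange symbols for Aloxe3 replicates. Aloxe3 replicate 9 (orange triangle) is the highest library for Hamp and the lowest for Slc40a1, Tfrc, Slc11a2, Fth1 and Ftl1, and β-gal replicate 1 (blue circle) is the lowest for Cp, Mt1 and Mt2.

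Library by library, Aloxe3 replicate 9 was the lowest of the 6 libraries for 5 of the 10 genes and β-gal replicate 1 for 3. The part of the share of mitochondrial reads in these values was not tested. Ratios within a library do not depend on the scaling between libraries and were compared next. The Mt1 to Mt2 ratio was 1.80, 1.68 and 1.65 in the β-gal libraries and 1.63, 1.76 and 1.74 in the Aloxe3 libraries, so that the groups overlapped (log2 difference 0.003, exact permutation test, two-sided p = 1). The Fth1 to Ftl1 ratio was 12.7, 12.6 and 12.2 in β-gal and 12.5, 12.6 and 12.2 in Aloxe3 libraries (log2 difference −0.003, exact permutation test, two-sided p = 0.8). The Fth1 to Tfrc ratio was 213, 233 and 241 in β-gal and 239, 252 and 244 in Aloxe3 libraries. It sets the mRNA of a storage gene against that of an uptake gene, and does not measure stored iron. The groups overlapped only in that β-gal replicate 3 lay above Aloxe3 replicate 7 (log2 difference 0.10, exact permutation test, two-sided p = 0.2), and without β-gal replicate 1 the log2 difference was 0.05. With 3 libraries against 3 this test cannot give a p below 0.1.

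A wider set of 119 genes of iron, heme, copper and zinc handling, in 8 lists, was tested in the same fit. Of the 102 that passed the filter, 2 were higher at an adjusted p under 0.05 from limma (1.96% of them) and 0 were lower, against 0.394% of all tested genes. At an unadjusted p under 0.05 there were 10 higher and 9 lower, against 12.7% of all genes. The median log2 fold change of the 102 genes was 0.00. The lists were chosen with earlier results known and the share rests on 2 genes, with 0 or 1 called when a library was left out, so it is no result about the lists.

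The first of the 2 was Hp, which encodes haptoglobin, a plasma protein of the acute phase response that captures free hemoglobin and so spares its iron. Hp was at 797, 847 and 831 RPKM in the β-gal libraries and at 1205, 1185 and 1136 RPKM in the Aloxe3 libraries. All Aloxe3 libraries were higher than all β-gal libraries, far beyond the spread within groups. The log2 fold change was 0.51 (SE 0.04, limma adjusted p = 0.0078), and the adjusted p was 0.0545 without Aloxe3 replicate 7 (log2 fold change 0.49) and 0.146 without a filter on low values. Trf, transferrin itself, was at 102, 98.8 and 100.3 RPKM in β-gal and at 113, 113 and 105 RPKM in Aloxe3 libraries, without overlap (log2 fold change 0.14, limma adjusted p = 0.26). Hpx, the heme scavenger hemopexin, was at 3754 ± 68.9 and 3859 ± 171 RPKM (SD, n = 3, limma adjusted p = 0.80).

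The second was Steap4, a metalloreductase that reduces ferric iron and cupric copper before they are moved across membranes. Steap4 was at 29.8, 32.8 and 32.2 RPKM in β-gal and at 40.0, 42.3 and 38.5 RPKM in Aloxe3 libraries. All Aloxe3 libraries were again above all β-gal libraries. Its log2 fold change was 0.34 (SE 0.05, limma adjusted p = 0.0498), close to the threshold, and the adjusted p was 0.0796 to 0.149 when any 1 library was left out (log2 fold change 0.30 to 0.37), 0.0514 with a pseudocount of 0.1, 0.0842 without the trend and 0.186 without a filter. Its relatives Steap2 (log2 fold change 0.18, limma adjusted p = 0.27) and Steap1 (0.11, adjusted p = 0.43) did not pass the test. The 17 tested genes of iron and heme transport held 9 with values above 0 and 8 below.

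Of the 17 tested BMP and IL-6 genes that feed into hepcidin, 0 were called. With 0.394% of all tested genes called, a count of 0 in a list of this size, here and in the lists that follow, is no result about the list. Atoh8, a transcription factor that acts on the Hamp promoter, came nearest. It was at 1.84, 1.77 and 1.68 RPKM in β-gal and at 2.41, 2.29 and 2.41 RPKM in Aloxe3 libraries, without overlap (log2 fold change 0.29, SE 0.05, limma adjusted p = 0.090). Id1, a BMP target gene, was at 90.4 ± 9.54 and 80.4 ± 1.46 RPKM (SD, n = 3, log2 fold change −0.16, limma adjusted p = 0.39), and its log2 fold change was −0.08 without β-gal replicate 1. Acvr1, a BMP type I receptor, had a log2 fold change of −0.12 (limma adjusted p = 0.34).

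Of the 11 genes of iron sensing, 0 were called. Neo1, the hemojuvelin partner neogenin, had a log2 fold change of 0.12 (limma adjusted p = 0.29). The values were −0.09 (adjusted p = 0.33) for Furin, a protease that processes prohepcidin, and 0.15 (adjusted p = 0.35) for Epas1, a hypoxia-inducible factor. None of the 13 tested genes of iron storage, chaperones and heme breakdown was called, and 11 of them had values below 0, as did 6046 of the 12693 genes tested. The smallest p belonged to genes of iron-sulfur cluster assembly. Nfs1, the cysteine desulfurase, was at 15.8 ± 0.249 and 14.0 ± 0.51 RPKM (SD, n = 3, log2 fold change −0.17, limma adjusted p = 0.18). Glrx5 (−0.15, adjusted p = 0.31) and Bola2 (−0.09, adjusted p = 0.35), which pass clusters on or carry iron, did not pass the test either, and their groups did not overlap.

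In heme synthesis 0 of 9 genes were called. Cpox, coproporphyrinogen oxidase, had a log2 fold change of 0.18 (limma adjusted p = 0.27), and Alas1, the rate-limiting enzyme, one of 0.06 (adjusted p = 0.56). Of 13 copper genes 0 were called. Xiap, which binds copper and is better known as an inhibitor of apoptosis, had a log2 fold change of 0.13 (limma adjusted p = 0.29). Ccs, the copper chaperone of superoxide dismutase, had one of −0.13 (adjusted p = 0.41), and its client Sod1 one of −0.09 (adjusted p = 0.45). Without Aloxe3 replicate 9 these were −0.06 and −0.05. Of 18 zinc genes 0 were called, and 8 more were below the filter. Slc39a3, a zinc importer, was at 4.66, 4.70 and 4.68 RPKM in β-gal and at 3.86, 4.20 and 3.83 RPKM in Aloxe3 libraries, without overlap (log2 fold change −0.19, limma adjusted p = 0.19). Slc30a7, which loads zinc into the secretory pathway, and Slc39a11 had log2 fold changes of −0.09 (limma adjusted p = 0.35) and −0.12 (adjusted p = 0.38).

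**Figure D4:**
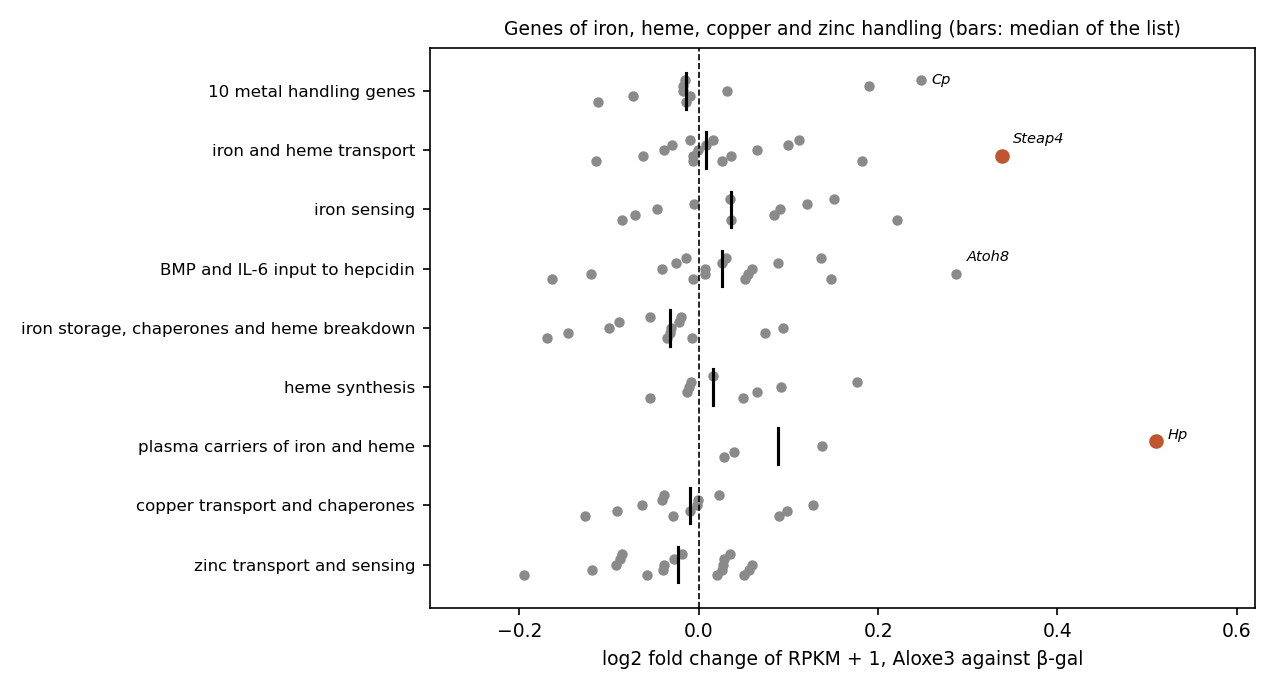
Log2 fold change of RPKM + 1 in Aloxe3 against β-gal libraries for each tested gene (points) of the 10 metal handling genes and of 8 wider lists, with the median of each list as a black bar. Hp (0.51) and Steap4 (0.34), in orange, are the 2 genes past an adjusted p of 0.05, and most other genes lie close to 0.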

How the data were processed

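Total RNA of 6 libraries was selected for poly-A and sequenced as single reads of 50 bases. The authors aligned reads to GRCm38.p2 with STAR 2.0.4b, used featureCounts 1.4.5 to count reads that aligned uniquely to 1 gene, and deposited RPKM values for 41388 Ensembl genes. How counts became RPKM, and whether counting used strand, is not given in the sources used here. Symbols and coordinates came from GENCODE M21 (40340 identifiers matched), promoter sequences from RefSeq (7 of the 10 genes were in the table; Slc40a1, Slc11a2 and Slc39a14 were not).

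Values were used as deposited and tested as log2(RPKM + 1), which understates the change of low genes, by limma (version 3.58.1, R 4.3.3; moderated with a mean-variance trend, Benjamini-Hochberg at 0.05). Reads were derived from the whole-number steps of the RPKM values, with the exon length for 16548 genes and the smallest fitting length for 8440. Each replicate pair differed by more than sampling noise by a chi-square test of derived reads (at least 3.42 per degree of freedom).

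The members and lists were chosen with earlier results of these data known. Named are the 10 genes, Aloxe3, per list the genes called and the 3 with the smallest p, and the 3 genes most correlated with the member of smallest p. A gene that this rule names is not reported here. Alternatives were a pseudocount of 0.1, no filter, a filter at 5 RPKM, median scaling, quantile normalization, eBayes without trend, voom on derived reads, and each library left out. Figures were drawn with matplotlib 3.10.9.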

Additional observations from a re-analysis of the deposited data

How the results depend on the processing

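No paired analysis was made because the labels do not say whether samples of the 2 groups belong together. The count of genes called, 50 in all, was 7 without a filter on low values, 173 with voom and 6 to 19 with 1 library left out. The count among the 10 metal handling genes, 0, was 1 with voom (Cp) and 0 to 0 with 1 library left out. Among the 102 wider genes the count of 2 was 1 with a pseudocount of 0.1, 1 without the trend, 0 without a filter, and 0 to 1 with 1 library left out, where Steap4 lost its call each time (log2 fold change 0.30 to 0.37) and Hp without Aloxe3 replicate 7 (0.49, limma adjusted p = 0.0545). Quantile normalization turned the log2 fold changes of Ftl1 to 0.00964, Slc39a14 to 0.00274, Mt2 to 0.0256 and Hpx to −0.0386, and the cause was not tested. With 1 library left out, log2 fold changes spanned −0.0346 to 0.0101 for Fth1, −0.0303 to 0.000373 for Ftl1, −0.021 to 0.132 for Slc40a1, −0.0275 to 0.00567 for Slc39a14, −0.0961 to 0.0286 for Mt1, −0.136 to 0.0506 for Mt2, −0.152 to −0.0667 for Tfrc and −0.112 to −0.0153 for Slc11a2. The log2 ratio difference spanned −0.0224 to 0.0405 for Mt1 to Mt2 and −0.0205 to 0.0116 for Fth1 to Ftl1, and 0.0496 to 0.139 for Fth1 to Tfrc. Of 130 values of the 10 genes under alternatives, 15 turned in direction, 1 passed the threshold, and Mt1 under quantile normalization was 0 to rounding.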
